A study of Mus musculus with 8 samples.

Results

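Triglyceride is built in the liver by a short series of enzymes, and 10 genes of these and adjoining steps were followed here in the livers of mice lacking SIRT7, a histone deacetylase. The genes were Mogat1, Dgat1, Dgat2, Gpam, Agpat1, Agpat2, Agpat3, Lpin1, Lpin2 and Mgll. Every probe set annotated to exactly 1 of these symbols was kept, which gave 18 probe sets of 9 genes, out of 22626 probe sets tested and 12393 genes with a single-gene probe set. Agpat2 has no such probe set in the annotation used and is not analysed here. The list, with Mogat1 as its lead, was chosen by the SIRT7 KO minus WT differences in log2 expression of these same arrays, so the values of these genes are given as a description. Their calls come from the fit across all probe sets and are no independent evidence, and neither a p for these genes nor a test of the list is given.

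Liver total RNA of 4 SIRT7 KO and 4 wild-type (WT) mice was biotin-labelled and measured on Affymetrix mouse GeneChips, 1 array for each mouse. SIRT7 KO mice are described by the study as a model that develops fatty liver on a chow diet, and the labels name no treatment of either group. The labels name no age, sex, litter or batch, so a p-value speaks only for the spread among these 8 livers. Values are deposited log2 expression, where 1 unit is a doubling, and a probe set's level cannot be set against that of another probe set.

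In the glycerol phosphate route, Gpam, the mitochondrial glycerol-3-phosphate acyltransferase, attaches the first fatty acid to glycerol 3-phosphate, and the Agpat enzymes add the next to make phosphatidic acid. Lipins remove the phosphate and leave diacylglycerol, which Dgat1 and Dgat2 esterify to triglyceride. Mogat1 reaches diacylglycerol by a different way, by acylating monoacylglycerol, a route known best from the intestine through its relative Mogat2. Mgll, monoacylglycerol lipase, consumes the substrate of Mogat1 by splitting it into glycerol and a free fatty acid.

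The arrays were alike in their medians, at 6.33 to 6.36 in SIRT7 KO and 6.30 to 6.36 in WT. Sirt7 lay at 4.40 to 4.90 on the SIRT7 KO arrays and at 8.57 to 8.98 on the WT arrays, so the targeted gene was low on every array labelled SIRT7 KO. The 8 hepatocyte markers, among them albumin (Alb) and transthyretin (Ttr), averaged 14.43 to 14.50 in SIRT7 KO and 14.51 to 14.55 in WT, near the top of the scale on every array. Every SIRT7 KO array thus lay below every WT array, with a mean difference of -0.07. An exact two-sided permutation test gave p = 0.0286, or 0.114 when adjusted over the marker lists. Of the 8 markers, 7 had negative differences, and none was called. Over all 22626 probe sets, 4.31% were called at an adjusted p under 0.15 (limma with Benjamini-Hochberg adjustment, the false discovery rate of the study's methods), 1.92% higher and 2.39% lower in SIRT7 KO.

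The stretches just before the transcription starts of 4 of these genes are printed because they belong to the genes with at least 1 probe set in which SIRT7 KO exceeded WT without overlap (Mogat1, Mgll, Lpin2) and to the gene with the widest span among the WT arrays (Lpin1). Each is the 250 bases upstream of a RefSeq start site in GRCm38.p6, 5′ to 3′ on the strand of the gene. Capitals mark a match to one of 7 short motifs searched on both strands.
Mogat1, chr1:78510810-78511059, plus strand: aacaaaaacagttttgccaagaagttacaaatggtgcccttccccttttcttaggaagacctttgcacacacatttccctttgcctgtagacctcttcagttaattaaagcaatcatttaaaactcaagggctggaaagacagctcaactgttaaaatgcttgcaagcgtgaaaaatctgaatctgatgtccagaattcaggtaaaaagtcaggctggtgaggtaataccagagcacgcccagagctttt
Mgll, chr6:88724162-88724411, plus strand: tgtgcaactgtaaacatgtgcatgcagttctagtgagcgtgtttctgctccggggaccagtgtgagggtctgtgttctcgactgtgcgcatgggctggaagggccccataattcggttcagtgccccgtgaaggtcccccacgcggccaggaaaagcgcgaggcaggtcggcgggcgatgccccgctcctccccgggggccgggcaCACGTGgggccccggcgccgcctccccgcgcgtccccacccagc
Lpin2, chr17:71183282-71183531, plus strand: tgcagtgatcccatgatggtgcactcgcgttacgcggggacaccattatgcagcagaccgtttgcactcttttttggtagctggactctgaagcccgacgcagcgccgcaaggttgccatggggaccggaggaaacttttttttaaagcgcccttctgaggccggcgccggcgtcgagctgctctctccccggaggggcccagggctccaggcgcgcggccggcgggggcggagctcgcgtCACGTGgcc
Lpin1, chr12:16610967-16611216, minus strand: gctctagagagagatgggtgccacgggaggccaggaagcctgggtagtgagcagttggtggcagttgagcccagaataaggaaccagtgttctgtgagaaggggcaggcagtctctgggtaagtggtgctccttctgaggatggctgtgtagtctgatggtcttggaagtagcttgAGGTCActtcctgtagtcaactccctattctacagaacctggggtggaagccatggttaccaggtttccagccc

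Of the 10 genes, 8 have at least 1 start site in the RefSeq table, 13 start sites in all. The motifs were AGGTCA (the core that nuclear receptors bind), its direct repeat with a single base between (which contains the core), TCACNCCAC (a sterol regulatory element), CACGTG (an E-box), CCAAT (bound by the factor NF-Y), TATAAA (bound by the basal machinery) and TGACGTCA (a cAMP response element). CACGTG stood from -44 to -39 before the Mgll start and from -9 to -4 before the Lpin2 start printed above. It occurs in 6.02% of all 32851 upstream windows of that length. AGGTCA stood from -74 to -69 before Lpin1, from -196 to -191 before a start of Gpam and, on the opposite strand, from -35 to -30 before a start of Agpat1, and 14.0% of all windows hold it. CCAAT matched in other windows of Agpat1 and Gpam and at 3 places in another window of Lpin2, and is held by 33.8% of all windows. CACGTG was not found in the other windows of Mgll and Lpin2. The Mogat1 window held none of the 7 strings, and with 41.2% G and C it lies below the median window, 52.4%. An empty window was not particular to Mogat1: those of Agpat2 and Agpat3, another of Mgll and another of Lpin2 held none either. A match of letters is a description and says nothing of whether a factor binds.

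Mogat1 showed the largest difference of the list. Its probe set, 1419504_at, read 7.55, 8.87, 6.11 and 7.31 on SIRT7 KO arrays 1 to 4, against 4.78, 5.99, 5.33 and 5.11 on WT arrays 1 to 4. Every SIRT7 KO value lay above every WT value, although the lowest SIRT7 KO array, number 3, was only 0.11 above the highest WT array, number 2. Means were 7.46 ± 1.13 in SIRT7 KO and 5.30 ± 0.51 in WT (SD, n = 4 each), a difference of 2.16 ± 0.50 (SE) or 4.46-fold. The SIRT7 KO arrays were also the more scattered, spanning 2.76 against 1.21 for WT. The WT values stood not far above the lower quartile of all probe sets (4.52 to 4.57 over the WT arrays), so the WT level of this probe set is a low signal. Mogat1 was among the probe sets called higher. That call was lost without WT array 1 (difference 1.98), without WT array 3 (2.17), and with either number 1 (2.13) or number 4 (2.21) of the SIRT7 KO arrays left out.

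**Figure D1:**
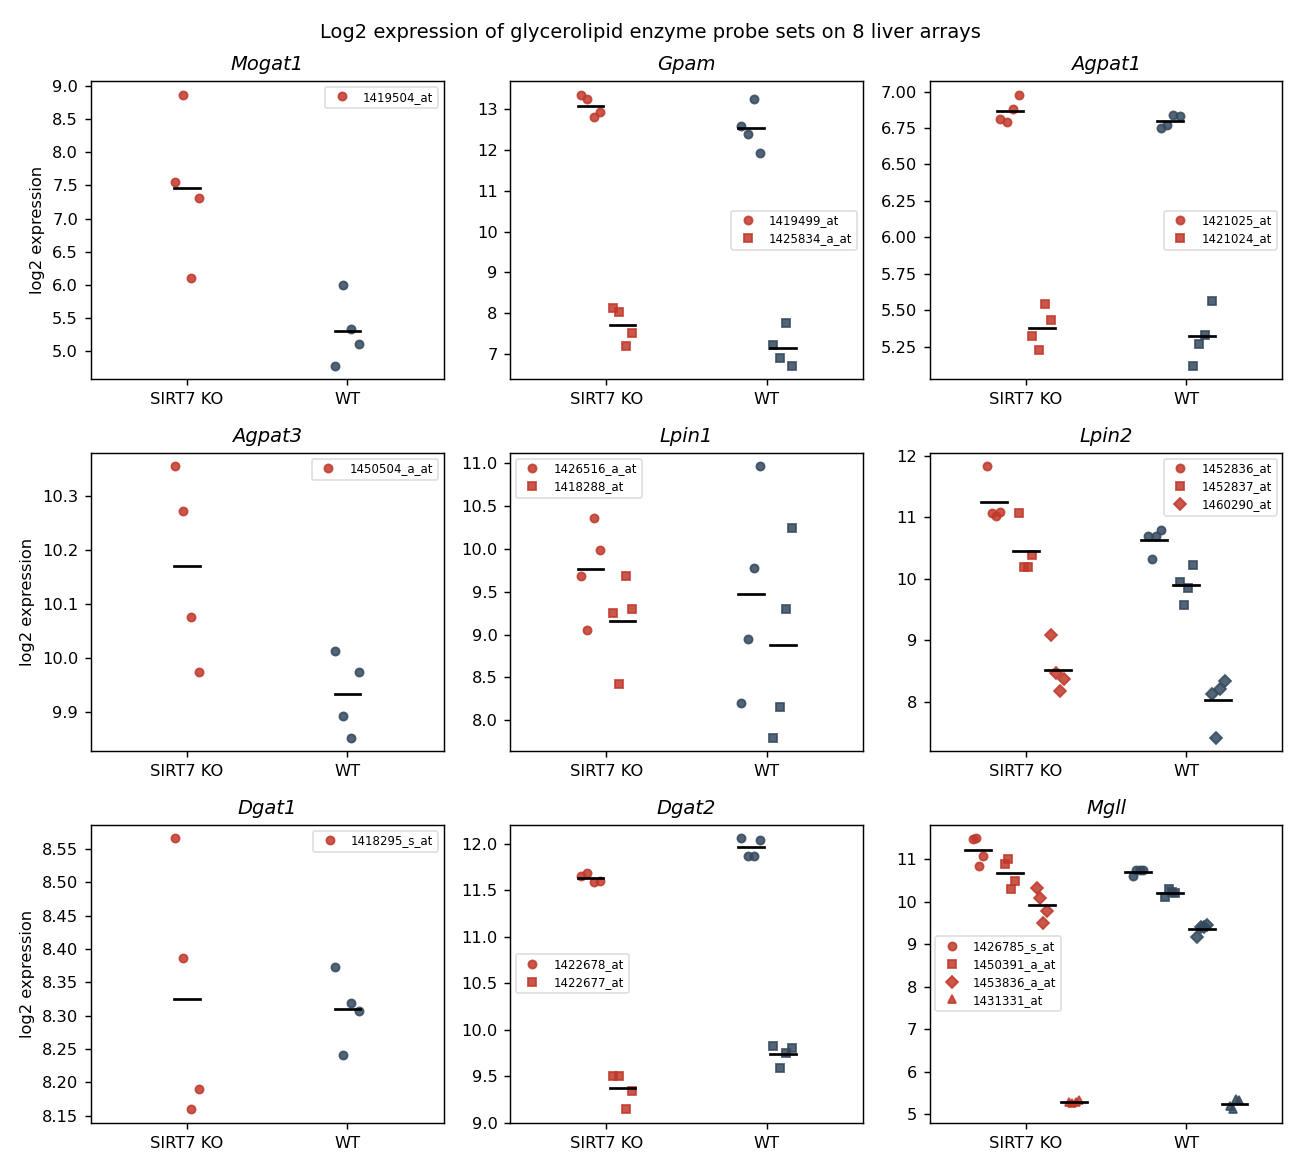
Log2 expression of each probe set of the 9 measured genes (y axis, a separate range for each panel) on 4 SIRT7 KO arrays (red, left) and 4 WT arrays (dark, right), with a marker shape for each probe set and a black line at each group mean. Mogat1 is higher on all SIRT7 KO arrays (6.11 to 8.87) than on the WT arrays (4.78 to 5.99), Dgat2 is lower, and Lpin1 scatters widely within each genotype.

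Mgll, the lipase that uses the same monoacylglycerol, was the other gene with a probe set called higher. Its brightest probe set, 1426785_s_at, read 11.46, 11.49, 10.83 and 11.07 in SIRT7 KO and 10.60, 10.74, 10.74 and 10.74 in WT. SIRT7 KO thus exceeded WT by 0.50 ± 0.14 (SE), or 1.42-fold, with no overlap. The WT arrays were tightly grouped, spanning 0.14, while the SIRT7 KO arrays spanned 0.66. In the other bright probe sets of Mgll the values were 10.89, 10.996, 10.30 and 10.49 in SIRT7 KO and 10.11, 10.29, 10.23 and 10.19 in WT for 1450391_a_at, a difference of 0.46 ± 0.14. For 1453836_a_at they were 10.32, 10.09, 9.50 and 9.77 in SIRT7 KO and 9.16, 9.41, 9.41 and 9.44 in WT, a difference of 0.57 ± 0.16. Neither of these was called, although both separated the genotypes on all 8 arrays. These 3 probe sets varied together over the arrays (Pearson r 0.96 to 0.99), so they are repeated readings of 1 gene and not independent support. The fourth, 1431331_at, was dim and flat, at 5.27 to 5.34 in SIRT7 KO and 5.11 to 5.37 in WT. The call of 1426785_s_at was kept without SIRT7 KO array 3 (0.63) and lost when any other array was left out (0.41 to 0.55).

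Dgat2, which esterifies diacylglycerol in the last step and is the major Dgat of mouse liver, went the other way. Probe set 1422678_at read 11.65, 11.69, 11.59 and 11.60 in SIRT7 KO and 12.06, 11.87, 11.87 and 12.04 in WT. It fell by 0.33 ± 0.07 (SE), to 0.796 of the WT level. Probe set 1422677_at read 9.50, 9.50, 9.14 and 9.34 in SIRT7 KO and 9.83, 9.59, 9.75 and 9.80 in WT, and fell by 0.37 ± 0.10, to 0.774 of the WT level. Both were called lower, and in both every SIRT7 KO array lay below every WT array. They correlated over the 8 arrays at r = 0.91. The difference in 1422678_at is small but rests on narrow groups, spanning 0.10 in SIRT7 KO and 0.19 in WT. Its call was lost without WT array 1 (-0.30) and with either number 3 (-0.31) or number 4 (-0.32) of the SIRT7 KO arrays left out, and that of 1422677_at without any array but WT array 2 (-0.29 to -0.41).

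Dgat1, the enzyme of a different protein family that catalyses the same last reaction, showed no such shift. It read 8.57, 8.39, 8.16 and 8.19 in SIRT7 KO and 8.37, 8.24, 8.32 and 8.31 in WT, a difference of 0.02 ± 0.10 (SE). The groups overlapped, with SIRT7 KO arrays 1 and 2 above all WT arrays and arrays 3 and 4 below all of them. Whether the differences of Dgat1 and Dgat2 differ from each other was not tested.

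The lipins, the phosphatidic acid phosphatases of the route, gave unlike pictures. Lpin2 probe set 1452836_at read 11.82, 11.07, 11.03 and 11.08 in SIRT7 KO and 10.70, 10.32, 10.70 and 10.79 in WT. The genotypes did not overlap, and the difference was 0.62 ± 0.18 (SE), 1.54-fold, without reaching the call. SIRT7 KO array 1 was well above the other SIRT7 KO arrays, and without it the difference was 0.43. Probe set 1452837_at gave 11.07, 10.19, 10.19 and 10.39 in SIRT7 KO and 9.95, 9.57, 9.84 and 10.22 in WT, and 1460290_at gave 9.08, 8.46, 8.18 and 8.38 in SIRT7 KO and 8.13, 7.42, 8.21 and 8.35 in WT. Their differences were 0.56 ± 0.21 and 0.50 ± 0.23, with overlap between the groups and no call. Without SIRT7 KO array 1 they were 0.36 and 0.31, and without WT array 2 that of 1460290_at was 0.30.

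Lpin1 varied more within each genotype than between them. Probe set 1426516_a_at read 9.68, 9.05, 10.36 and 9.98 in SIRT7 KO and 8.20, 8.95, 9.77 and 10.96 in WT. Both the lowest and the highest array of the 8 were WT arrays, numbers 1 and 4, and the WT arrays spanned 2.76. Probe set 1418288_at varied with it over the arrays (r = 0.99), at 9.25, 8.42, 9.68 and 9.30 in SIRT7 KO and 7.80, 8.16, 9.30 and 10.23 in WT. The differences, 0.30 ± 0.53 and 0.29 ± 0.50 (SE), lay within their errors, and neither was called. Without WT array 1 both turned to the other sign, -0.12 and -0.07.

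In the first steps of the glycerol phosphate route the values were higher in SIRT7 KO with overlap, or level. Gpam probe set 1419499_at read 13.35, 13.25, 12.81 and 12.92 in SIRT7 KO and 12.59, 12.38, 13.25 and 11.91 in WT, a difference of 0.55 ± 0.25 (SE). WT array 3 sat among the SIRT7 KO arrays. Without that array the difference was 0.79 and the probe set was called, and without WT array 4, the lowest, it was 0.34 and not called. Probe set 1425834_a_at varied with it over the arrays (r = 0.96), at 8.12, 8.02, 7.19 and 7.53 in SIRT7 KO and 7.23, 6.90, 7.77 and 6.71 in WT, a difference of 0.56 ± 0.26. Agpat3 read 10.35, 10.27, 10.08 and 9.97 in SIRT7 KO and 10.01, 9.89, 9.85 and 9.97 in WT, a difference of 0.24 ± 0.09 that was not called. Agpat1 was level in both of its probe sets, at 6.79 to 6.98 in SIRT7 KO and 6.75 to 6.84 in WT for 1421025_at, and at 5.23 to 5.54 in SIRT7 KO and 5.12 to 5.57 in WT for 1421024_at, with differences of 0.07 ± 0.07 and 0.06 ± 0.11.

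**Figure D2:**
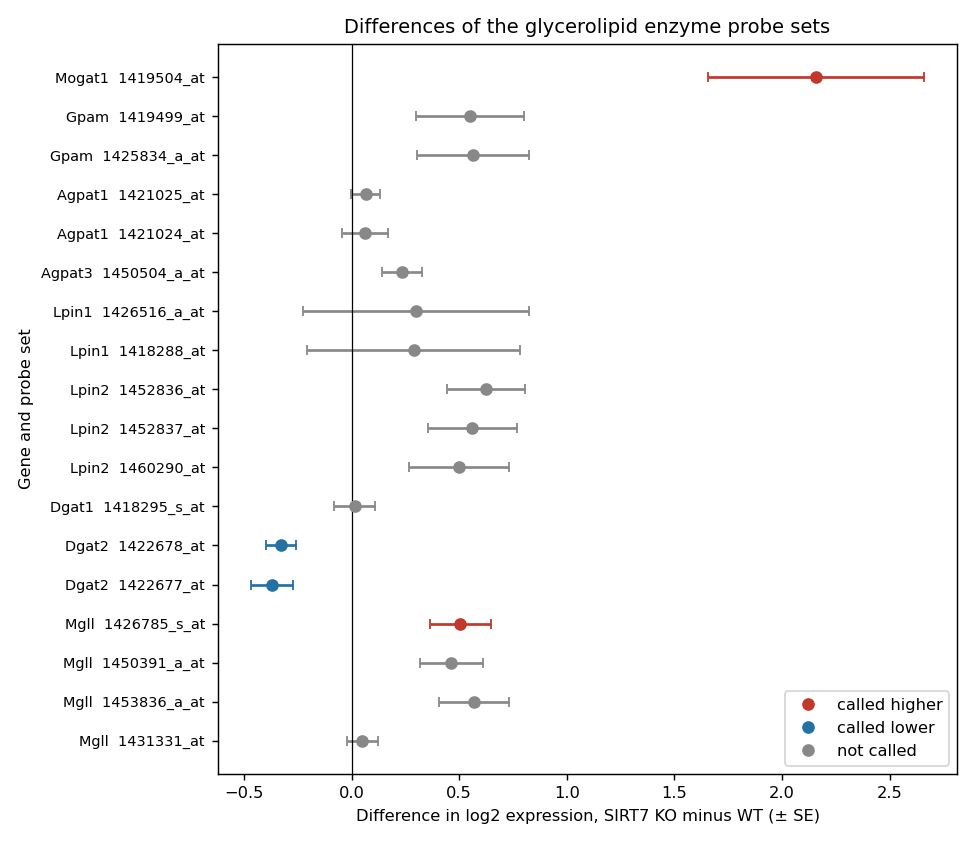
Difference in log2 expression, SIRT7 KO minus WT, for each of the 18 probe sets (x axis), with bars of 1 SE from the model and colours for probe sets called higher, called lower or not called at an adjusted p under 0.15. Mogat1 stands apart at 2.16, the 2 probe sets of Dgat2 lie below 0, and Lpin1 and Mogat1 have the widest bars.

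Counted over the list, 2 of 18 probe sets were called higher (Mogat1 and Mgll), 2 were called lower (both Dgat2) and 14 were not called. The share called over all probe sets was 4.31%, and since the genes were picked with this contrast known, nothing is read from the comparison. The sign was positive in 16 of 18. The median difference was 0.38, against -0.0031 over all probe sets. The genotypes did not overlap in 7 probe sets, against 9.35% of all probe sets. In 5 of them all SIRT7 KO arrays lay above all WT arrays (3.79% of all probe sets) and in 2 all lay below (5.56%). With each gene taken by its brightest probe set, 2 of 9 genes were called higher and 1 lower, where of all 12393 genes 4.65% were called, 2.17% higher and 2.48% lower. Without overlap stood 4 of the 9, 3 with SIRT7 KO above and 1 with SIRT7 KO below, where 9.8% of all genes did, 4.1% above and 5.7% below.

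The arrays of a genotype did not contribute alike. SIRT7 KO array 3 was the lowest of its group in 11 of the 18 probe sets, and SIRT7 KO array 1 the highest in 9. Arrays 1 and 2 stood above arrays 3 and 4 of SIRT7 KO in 11 of the 18 probe sets, those of Mogat1, Gpam, Agpat3, Dgat1 and Dgat2, the 3 bright ones of Mgll and 1460290_at of Lpin2. The split was thus shared by genes that were higher, level and lower in SIRT7 KO. Probe sets of the same gene count more than once here, and the share of all probe sets with this split was not counted. Outside the list it was seen in Cd36, though not in Pparg. Lpin1 ran the other way, with array 3 the highest and array 2 the lowest. On the WT side, array 1 was the lowest in 8 probe sets and array 4 the highest in 8.

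**Figure D3:**
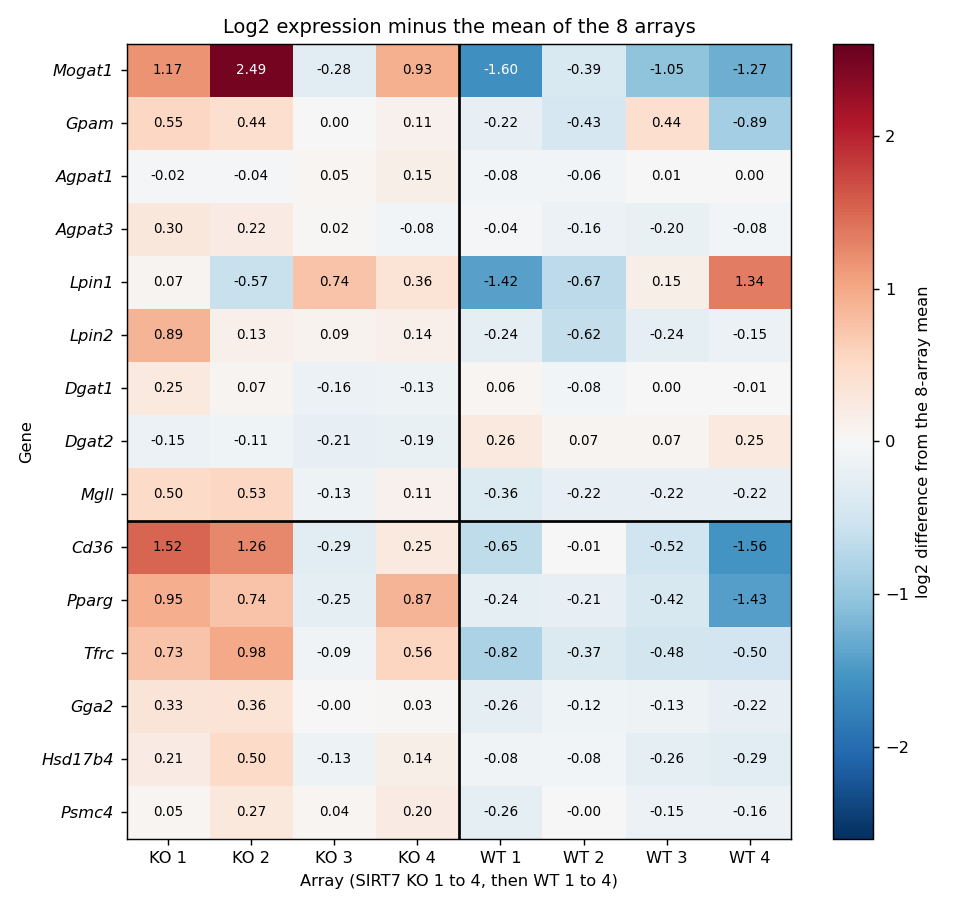
Log2 expression of the brightest probe set of each gene (rows) on each array (columns, SIRT7 KO 1 to 4 and then WT 1 to 4), after subtracting the mean of the 8 arrays. Below the line stand Cd36, Pparg and the genes most like Mogat1. Mogat1, Tfrc and Gga2 share the order of the arrays, with SIRT7 KO array 2 highest and WT array 1 lowest.

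Which genes moved over the arrays most like Mogat1 was asked among the 10403 single-gene probe sets whose mean lay above the median of all probe sets, by Pearson r over the 8 arrays. The ranking is a description of arrays that share the genotype contrast, and carries no p. The most alike was Tfrc, the transferrin receptor (r = 0.98, Spearman rho = 1), followed by Mgll probe set 1450391_a_at (r = 0.95, rho = 1). Next came Gga2, an adaptor of Golgi sorting (r = 0.94, rho = 1), and Hsd17b4, a peroxisomal β-oxidation enzyme (r = 0.94). Psmc4, a proteasome subunit, followed (r = 0.93, rho = 0.98). Hsd17b4 had a rho of 0.81, which ranked it only 251 by that measure. Tfrc read 10.68, 10.93, 9.86 and 10.50 in SIRT7 KO and 9.13, 9.58, 9.47 and 9.45 in WT. After the genotype means were removed, r stood at 0.94 for Tfrc and 0.89 for Mgll, but both were picked for their r over the same 8 arrays, so these values are no separate support. In the opposite direction were Pigr, the polymeric immunoglobulin receptor (r = -0.97), Rassf3 (-0.97), AI597479 (-0.97), Msl1 (-0.96) and Tmed7, a cargo receptor of the early secretory pathway (-0.96). In all, 23 probe sets had r over 0.9 and 56 had r under -0.9.

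Within the list itself, Mgll was the gene most like Mogat1. The brightest Mgll probe set had r = 0.94 with Mogat1 over the 8 arrays and 0.84 after removing genotype means. Agpat3 had 0.72 and 0.34, Gpam had 0.62 and 0.29, and Lpin2 had 0.59 and -0.09. Dgat2 had r = -0.74, which was 0.03 after removing the genotype means. Within SIRT7 KO the arrays ran in the same order for both (2, 1, 4, 3 from high to low), and within WT in reversed order, so the value near 0 pools opposite orders of 4 arrays each. Lpin1 had r = -0.06.

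The other genes of the pathway were taken from lists by role, 89 genes of which 73 were measured, each by its brightest probe set. Of these, 5 rose and 6 fell at an adjusted p under 0.15, where 2.17% and 2.48% of all genes did. The median difference over the 73 was 0.02. With 1 array left out, 1 to 3 of those 5 and 2 to 5 of those 6 passed again, with 0 to 2 genes passing that had not before, and the number of the 8 such settings in which each gene passed is given with it.

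Genes that supply the building blocks included 3 of 13 that rose and 0 that fell. Acsl4, which activates long polyunsaturated fatty acids to acyl-CoA, rose by 0.72 ± 0.13 (SE, limma adjusted p = 0.050), passing without each of the 8 arrays in turn. Its values were 9.94, 10.11, 10.06 and 10.25 in SIRT7 KO and 9.28, 9.09, 9.73 and 9.39 in WT. Gpd2, the mitochondrial glycerol-3-phosphate dehydrogenase, rose by 0.63 ± 0.14 (adjusted p = 0.088), passing in 3 of the 8 settings. Aqp7, a glycerol channel, rose by 0.40 ± 0.11 (adjusted p = 0.140) in its brightest probe set, passing in 1 setting. That probe set read 4.28 to 4.84 in SIRT7 KO and 4.03 to 4.19 in WT, about the lower quartile of all probe sets. The other Aqp7 probe set was dimmer and went the other way (-0.11 ± 0.08, adjusted p = 0.582), with overlap between the groups. Aqp7 was not called when the probe sets of each gene were averaged. Cd36, a fatty acid transporter, did not pass: it read 11.31, 11.05, 9.50 and 10.04 in SIRT7 KO and 9.14, 9.78, 9.27 and 8.23 in WT, a difference of 1.37 ± 0.43 (adjusted p = 0.181). It followed Mogat1 over the arrays at r = 0.88, and 0.73 after removing the genotype means, with SIRT7 KO array 3 inside the WT range for Cd36.

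Of the 16 genes of triglyceride hydrolysis measured, 2 fell and 0 rose, both of them carboxylesterases of the endoplasmic reticulum. The list as a whole was not lower: 9 differences were positive and 7 negative, from -1.11 to 0.84, with a median of 0.07. Ces1g fell by 0.94 ± 0.16 (SE, limma adjusted p = 0.048), reading 10.03, 9.75, 9.92 and 9.79 in SIRT7 KO and 11.12, 10.91, 10.92 and 10.29 in WT, and passed without each array in turn. Ces1e fell by 1.11 ± 0.30 (adjusted p = 0.131) and passed in 2 of the 8 settings. The other carboxylesterases measured, Ces1d (-0.09), Ces1f (-0.07) and Ces2e (-0.07), did not pass. Carboxylesterase genes lie in a cluster of near copies, so probe sets of one may read another. The cytosolic lipase of the droplet, Pnpla2, read 7.88 to 8.26 in SIRT7 KO and 7.56 to 7.99 in WT and did not pass (adjusted p = 0.334).

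Enzymes of the routes that lead from diacylglycerol or phosphatidic acid to other products included 2 of 12 that fell and 0 that rose. Not all of them act on either lipid directly. Pcyt2, which commits ethanolamine to phosphatidylethanolamine, a route that draws on diacylglycerol at a later step, read 6.61, 6.99, 6.80 and 6.52 in SIRT7 KO and 11.27, 11.06, 11.54 and 10.98 in WT. It fell by 4.48 ± 0.14 (SE), the most of the 73. No protein-coding gene lies between Pcyt2 and Sirt7 on the chromosome in the RefSeq order, and whether the fall belongs to the knocked-out locus was not tested. Dgkq, a kinase that turns diacylglycerol into phosphatidic acid, fell by 0.32 ± 0.08 (limma adjusted p = 0.099) and passed in 2 of the 8 settings.

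Among further synthesis enzymes 1 of 10 fell, Plpp1, a phosphatidic acid phosphatase of the cell surface, by 0.31 ± 0.09 (SE, limma adjusted p = 0.136), passing in 2 of the 8 settings. For Plpp1, r with Mogat1 over the 8 arrays was -0.92, and -0.75 after removing the genotype means. Plpp2, a phosphatase of the same family, was next by p at 0.15 ± 0.11 (adjusted p = 0.575). Mogat2, the intestinal relative of Mogat1, read 5.06 to 5.42 in SIRT7 KO and 4.69 to 5.59 in WT and did not pass (adjusted p = 0.718). In lipoprotein export 0 of 6 genes passed, with Sar1b, a coat protein of transport vesicles, at 0.17 ± 0.08 (adjusted p = 0.347) and Mttp, which loads triglyceride onto apolipoprotein B, at 0.21 ± 0.10 (adjusted p = 0.372).

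Of 16 regulators, 2 rose and 1 fell. Pparg, a nuclear receptor that drives fat storage and induces Mogat1 in steatotic mouse liver, read 9.004, 8.79, 7.80 and 8.93 in SIRT7 KO and 7.81, 7.84, 7.63 and 6.62 in WT. It rose by 1.16 ± 0.33 (SE, limma adjusted p = 0.145), with SIRT7 KO array 3 inside the WT range, and passed in 1 of the 8 settings, without SIRT7 KO array 3. Its r with Mogat1 over the 8 arrays was 0.82, and 0.53 after removing the genotype means. Whether Pparg acts on Mogat1 in these livers was not tested. Insig2, which retains the sterol sensor Scap in the endoplasmic reticulum, rose by 0.89 ± 0.20 (adjusted p = 0.090), passing in 4 settings. Nr1i3, the nuclear receptor CAR, fell by 0.52 ± 0.14 (adjusted p = 0.142), passing in 1.

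**Figure D4:**
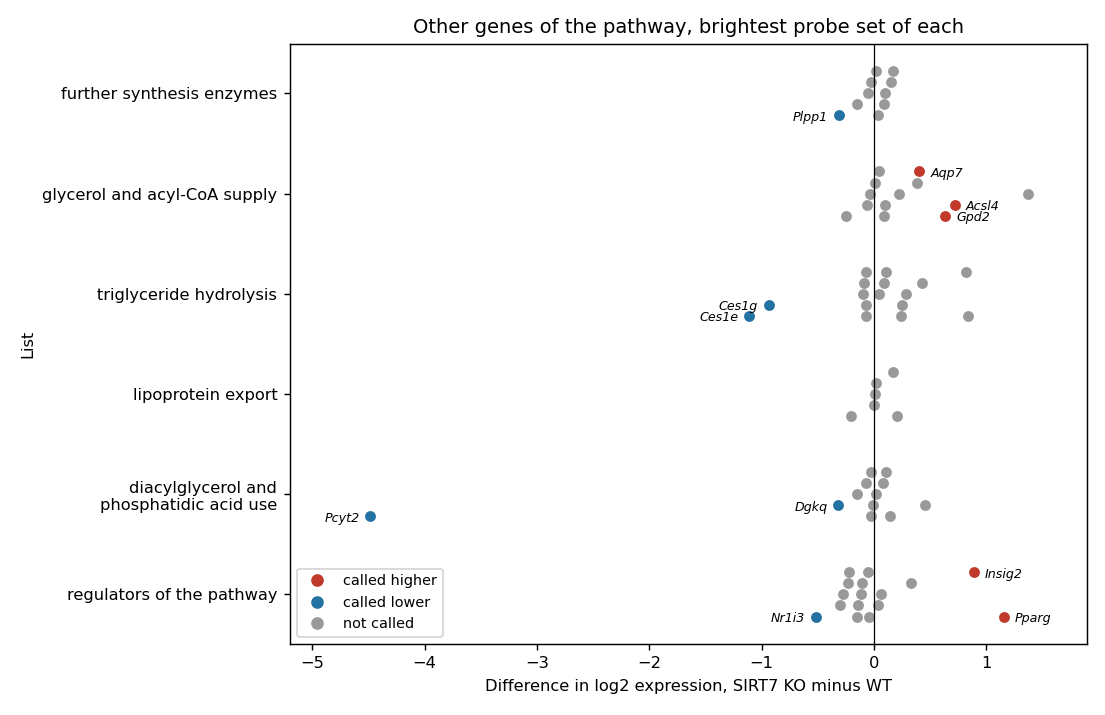
Difference in log2 expression, SIRT7 KO minus WT (x axis), of the 73 other genes of the pathway by list (y axis, points spread vertically for legibility), in red where called higher, blue where called lower and grey where not called at an adjusted p under 0.15. Pcyt2 lies far to the left at -4.48, and most genes of each list cluster near 0.

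In whole liver, fewer cells of a type and less RNA per cell cannot be told apart. Of the adipose tissue markers, 6 of 8 were measured and averaged 5.15 to 5.68 in SIRT7 KO and 4.79 to 4.91 in WT, with all SIRT7 KO arrays above all WT arrays as for Mogat1. Fabp4 (1.55 ± 0.22, SE, limma adjusted p = 0.028) and Cidec (1.998 ± 0.56, adjusted p = 0.141) passed and rose, both genes that fatty liver can also express. The other 4 did not pass. Adipoq read 3.39 to 3.71 in SIRT7 KO and 3.60 to 3.72 in WT, and Lep 3.48 to 3.64 in SIRT7 KO and 3.51 to 3.79 in WT, both near the floor. Retn read 5.28 to 5.56 in SIRT7 KO and 5.25 to 5.60 in WT, and Adig 4.35 to 4.53 in SIRT7 KO and 4.28 to 4.63 in WT. Cfd and Plin1 were not measured. Which cells gave the Fabp4 and Cidec signal was not tested. Cidec, a lipid droplet protein, read 7.36, 6.67, 4.32 and 5.23 in SIRT7 KO and 3.66, 3.86, 3.98 and 4.09 in WT, so that SIRT7 KO array 3 was again the lowest of its group.

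Of the macrophage markers 0 of 8 passed, with a mean of 9.02 to 9.91 in SIRT7 KO and 8.83 to 9.79 in WT, although all 8 differences were positive (median 0.21). Lyve1 rose among the 8 endothelial markers (1.21 ± 0.21, SE, limma adjusted p = 0.046), of which 5 had negative differences and the median was -0.05. In the other lists, Dcn rose among the 8 stellate cell markers (0.41 ± 0.10, adjusted p = 0.103) and so did Apoa4, which liver also makes, among the 5 intestinal markers measured (1.18 ± 0.19, adjusted p = 0.042), while 0 of 5 passed for cholangiocytes and 0 of 5 for pancreas. Of the stellate cell markers, 7 had positive differences (median 0.27). Their mean was 8.17 to 8.53 in SIRT7 KO and 7.75 to 8.18 in WT (exact two-sided permutation test, p = 0.0571, adjusted 0.114). The 3′ minus 5′ signal of the GAPDH control probe sets, a sign of RNA integrity, was -0.016 to 0.160 in SIRT7 KO and 0.163 to 0.289 in WT (exact two-sided permutation test, p = 0.0286, below which groups of 4 cannot go). The same signal of the β-actin control probe sets overlapped between genotypes. It was 1.29 to 1.63 in SIRT7 KO and 1.58 to 1.64 in WT (exact two-sided permutation test, p = 0.257). The part of RNA integrity in the differences above was not tested.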

How the data were processed

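The deposited table gives log2 expression, 1 value for each probe set and array, already background-corrected, normalized between arrays and summarised. The methods name RMA and the submitters' processing notes name GCRMA, with versions not given in the sources used here, and which was used is unknown. The values were used as deposited, as all 8 array medians were alike. Precision is limited by the array number.

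Of the probe sets, 64 Affymetrix controls were left out and 22626 tested. Names came from the platform annotation of GEO, which can be old: 20380 probe sets had 1 gene symbol, 691 several and 1555 none, and 20351 matched RefSeq by Entrez ID. The genotypes were compared, SIRT7 KO minus WT, with limma 3.58.1 in R 4.3.3 (lmFit and eBayes, genotype alone in the model, two-sided), and p-values were Benjamini-Hochberg adjusted over every tested probe set. Calls were made at an adjusted p under 0.15, with 0.05 as an alternative. The code was tested on simulated data. Other pathway genes, taken by their brightest probe set, were named where they passed or had 1 of the 2 smallest p-values of their list. Cd36, Pnpla2, Mogat2, Ces1d, Ces1f and Ces2e were added after their values were seen.

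The members and lists were chosen with earlier results of these data known. The labels name no pairing of the mice. Over all probe sets, same-numbered SIRT7 KO and WT arrays had residual correlations of -0.25 to 0.26, which cannot settle whether the mice were paired. The main fit used no pairing, and a replicate block was fitted as an alternative. Upstream sequences are those of RefSeq in GRCm38.p6, and proteins are not shown.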

Additional observations from a re-analysis of the deposited data

Results flagged for a closer look

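In 78 groups of 4 arrays examined, 6 had an array that stood apart from the other 3 by more than Dixon's 95% critical value, where chance alone sets apart about 1 group in 20. For Lpin2 probe set 1452836_at, SIRT7 KO array 1 read 11.82, with the other SIRT7 KO arrays at 11.03 to 11.08. For Mgll, WT array 1 was low in 1426785_s_at (10.60, with the other WT arrays at 10.74) and in 1453836_a_at (9.16, with the others at 9.41 to 9.44). Pparg was low on WT array 4 at 6.62, with the others at 7.63 to 7.84. Among the control probe sets, the GAPDH 3′ minus 5′ difference was -0.016 on SIRT7 KO array 1, with 0.137 to 0.160 on the others, and that of β-actin was 1.64 on WT array 1, with 1.58 to 1.59 on the others.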

How the results depend on the processing

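At an adjusted p under 0.05 in place of 0.15, 156 probe sets were called in place of 975, 0 of the 18 triglyceride enzyme probe sets were called in either direction, and 1 of the other pathway genes was called higher (Acsl4) and 2 lower. Mogat1 was not called at that threshold, nor with a trended, robust variance, its difference being 2.16 in both. The probe sets called higher numbered 5 with array weights, 4 when dim probe sets were left out and 1 after median centring, in place of 2, and averaging the probe sets of a gene gave 1 lower in place of 2. The labels do not say whether the replicate numbers pair the mice. Over all probe sets, same-numbered arrays had residual correlations of -0.25 to 0.26 over 4 pairs, which cannot settle whether the mice were paired. With the number as a replicate block, 628 probe sets were called, 1 of the 18 higher and 0 lower. The 1 called higher was Mogat1, with a difference of 2.16 and an SE of 0.33 in place of 0.50. Leaving out each array in turn gave 222 to 900 calls over all probe sets, 0 to 4 of the 18 higher and 0 to 2 lower, 1 to 4 of the other pathway genes higher and 2 to 5 lower, and a Mogat1 difference of 1.69 to 2.61; the fewest calls, 222, came without WT array 1. The direction turned without 1 array for Agpat1 1421024_at (-0.0061 to 0.14), Lpin1 1426516_a_at (-0.12 to 0.80), Lpin1 1418288_at (-0.069 to 0.74) and Dgat1 (-0.065 to 0.071, also -0.0078 and -0.0052), all of them small or uncertain on the 8 arrays. The direction of the other 14 probe sets was kept under every alternative. The causes were not tested.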
